A study of Homo sapiens with 6 samples.

Results

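The late cornified envelope genes of groups 1 and 2 comprise LCE1A to LCE1F and LCE2A to LCE2D. These 10 genes, of 17534 measured, were read by 15 probe sets whose platform annotation names 1 of them and no other gene, and 0 probe sets name a member together with another gene. The family was picked with results of the same comparison in view. Its differences are therefore given as a description, without a test, and its counts of called genes carry no weight as evidence.

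Late cornified envelope proteins are small cysteine-rich and glycine-rich proteins of the outer epidermis. Keratinocytes make them late in terminal differentiation, and transglutaminases cross-link them to other proteins in the envelope that replaces the plasma membrane of the dying cell. Their genes lie in the epidermal differentiation complex, a cluster on chromosome 1 that also holds the genes of filaggrin, involucrin, loricrin, the small proline-rich proteins and many S100 proteins. Members of the LCE1 group are described as responsive to the tumour suppressor p53.

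Expression was measured on PrimeView arrays, 3' arrays read with biotin-labelled cRNA, in MM.1R, an established myeloma cell line of human origin. Of the 6 arrays, 3 held RNA of cells that carried a control shRNA vector (shCtrl) and 3 that of cells given epirubicin hydrochloride, an anthracycline that poisons topoisomerase II and was added to stop proliferation. Both groups were MM.1R cells in the same medium, and a vector is named only for the controls, so the effects of drug and of vector cannot be told apart. The sources used here give neither dose nor length of exposure. Whether arrays of 1 group had cultures of their own is not stated either, so the p-values below measure only a spread that may be technical, and more cells with a transcript cannot be told apart from more RNA per cell.

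The deposited values are on a log2 scale. Array medians ran from 5.52 to 5.54 in control and from 5.56 to 5.57 with epirubicin. Lower quartiles ran from 3.84 to 3.85 and from 3.87 to 3.90. This small offset between groups is part of every difference below that is not centred. The labelled cell type was checked against 14 measured plasma cell markers, and all 14 had a control mean above every array median. Of 15 measured markers of basal keratinocytes and other epithelia, 4 did. The mean level of these 15 markers ran from 4.99 to 5.02 over the control arrays and from 5.05 to 5.13 over the epirubicin arrays, so it was slightly higher with the drug; its part in the LCE1 values was not tested. The list holds 3 keratins of basal keratinocytes, named here after their values were seen. KRT5 lay at 5.06 ± 0.09 in control and 5.03 ± 0.09 with epirubicin and KRT14 at 5.46 ± 0.06 and 5.60 ± 0.13, with overlapping groups. KRT15 lay at 5.33 ± 0.04 and 5.59 ± 0.13 (SD, n = 3), with every epirubicin array above every control array, a difference of 0.25 (limma, adjusted p = 0.0322) that was under the 1.3-fold limit for a call.

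LCE1C and LCE1E had the largest differences of the family. LCE1E, read by 1 probe set (11735685_at), had log2 values of 6.01, 6.02 and 5.77 on the control arrays and 7.85, 7.83 and 7.80 on the epirubicin arrays. The epirubicin arrays lay close together and far above every control array. The means were 5.93 ± 0.14 and 7.83 ± 0.03 (SD, n = 3), a difference of 1.90 on the log2 scale (SE 0.07), or 3.72-fold. It ranked 11th of the 17534 genes by upward difference.

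LCE1C, likewise read by 1 probe set (11734471_at), had values of 4.38, 4.32 and 4.16 in control and 6.26, 6.35 and 5.83 with epirubicin. The groups did not overlap, and the third epirubicin array lay apart from the mean of the other two, by -0.48. The means were 4.28 ± 0.12 and 6.15 ± 0.28 (SD, n = 3), a difference of 1.86 (SE 0.14), or 3.64-fold. LCE1C ranked 14th of all genes.

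LCE1B was read by 1 probe set whose name ends in x_at, an ending that Affymetrix gives to sets with probes that resemble other transcripts. Its values were 5.40, 5.39 and 5.47 in control and 6.27, 6.27 and 5.99 with epirubicin. Again the groups stood apart and the third epirubicin array was the lowest of its group, here by -0.28 from the mean of the other two. The difference was 0.76 (SE 0.08), or 1.69-fold.

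LCE1F was read by 3 probe sets that gave unlike differences. On 11759470_at, the only one with the plain ending, the values were 4.36, 4.46 and 4.67 in control and 5.62, 5.74 and 5.90 with epirubicin, a difference of 1.26 (SE 0.10), or 2.39-fold. On 11759471_x_at they were 4.28, 4.48 and 4.75 against 5.70, 5.83 and 5.97, a difference of 1.33 (SE 0.12), or 2.51-fold. On both sets the lowest epirubicin array lay 0.95 above the highest control array, and on both the third epirubicin array was the highest, the reverse of LCE1B and LCE1C.

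The third LCE1F set, 11715243_x_at, read 6.30, 6.15 and 6.32 in control and 6.55, 6.58 and 6.61 with epirubicin. The groups did not overlap there either, but the difference was only 0.33 (SE 0.06), or 1.25-fold. Because it was the brightest of the 3, it stands for LCE1F wherever 1 probe set per gene is counted, and LCE1F then falls short of the 1.3-fold limit (0.38 on the log2 scale). With the mean of the 3 sets the difference was 0.97, and with sets of the plain ending alone 1.26.

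**Figure D1:**
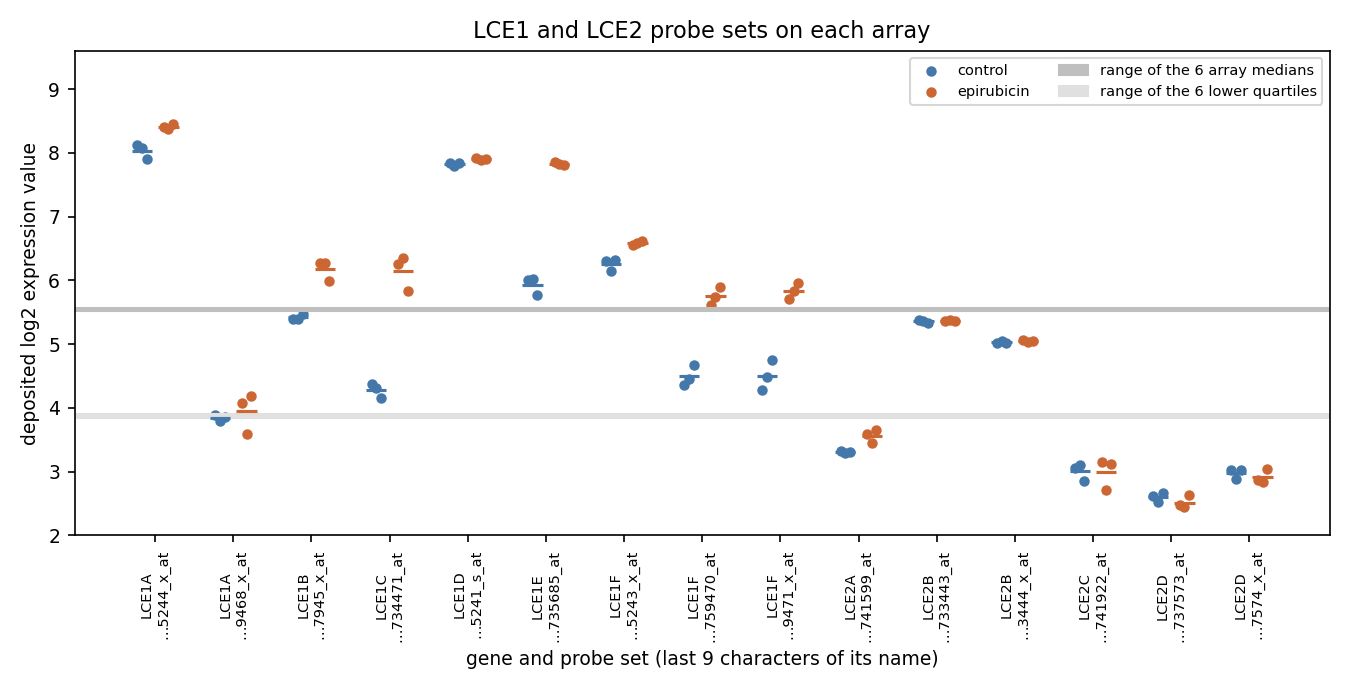
Deposited log2 values (vertical axis) of the 15 probe sets that name 1 LCE1 or LCE2 gene (horizontal axis), with 3 control points, 3 epirubicin points and a line at each group mean. LCE1C, LCE1E, LCE1B and 2 of the 3 LCE1F sets stand clearly apart between groups. The groups overlap on every LCE2 set but that of LCE2A, where the gap is small. Most LCE2 sets lie below or near the band of lower quartiles.

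LCE1A had 2 probe sets, both ending in x_at. The brighter read 8.12, 8.08 and 7.90 in control and 8.41, 8.38 and 8.45 with epirubicin, a difference of 0.37 (SE 0.06), or 1.30-fold, just under the limit before rounding. The dimmer read 3.90, 3.80 and 3.85 against 4.07, 3.60 and 4.19, a difference of 0.11 (SE 0.15) with overlapping groups. The second epirubicin array was below every control array on this set.

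LCE1D was read by 1 probe set ending in s_at, which marks probes shared by several transcripts. Its values were 7.85, 7.80 and 7.84 in control and 7.92, 7.89 and 7.90 with epirubicin. Every epirubicin array was above every control array, but by little: the difference was 0.08 (SE 0.04), or 1.06-fold. After centring each array on its median it was 0.05, and after quantile normalization 0.10. The LCE1D set, the bright LCE1A set and the bright LCE1F set are the 3 LCE sets of the members that carry no accession in the platform annotation.

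The LCE2 genes gave another picture. LCE2A, the member with the largest difference, read 3.32, 3.29 and 3.30 in control and 3.59, 3.45 and 3.66 with epirubicin. All 6 were under each array's lower quartile, and the groups did not overlap, with a difference of 0.26 (SE 0.06), or 1.20-fold. On so dim a set, and without detection calls, the level cannot be separated from background.

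LCE2B was read at 5.38, 5.36 and 5.33 in control and 5.36, 5.38 and 5.36 with epirubicin on its brighter set, a difference of 0.01 (SE 0.03), and its other set differed by 0.02 (SE 0.03). LCE2C read 3.05, 3.10 and 2.86 against 3.15, 2.72 and 3.12, a difference of -0.01 (SE 0.13). The brighter LCE2D set read 3.02, 2.89 and 3.03 against 2.87, 2.83 and 3.04, a difference of -0.07 (SE 0.07), and the other differed by -0.09 (SE 0.06). In LCE2B, LCE2C and LCE2D the groups overlapped on all of their probe sets. The LCE2C and LCE2D sets, like that of LCE2A, had control means below every array's lower quartile. Their levels cannot be separated from background either.

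In the 6 LCE1 genes the median difference was 0.57, with a range from 0.08 to 1.90. In the 4 LCE2 genes it was -0.001, with a range from -0.07 to 0.26. Of the LCE2 probe sets 4 of 6 had a control mean below every array's lower quartile, against 0 of 9 LCE1 sets. For those 4, absence of a response cannot be told apart from absence of signal. The LCE1 median depends on the probe set taken: it was 0.86 with the mean over a gene's sets, and 1.86 over the 3 LCE1 genes with a set of the plain ending. The median over all 17534 genes was 0.02. All 6 LCE1 genes and 1 of the 4 LCE2 genes, LCE2A, had every epirubicin array above every control array on the probe set used, an order found in 23.8% of all genes. By probe set it was 8 of 9 for LCE1 and 1 of 6 for LCE2, against 20% of all probe sets.

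A gene was called at an adjusted p under 0.05 in limma together with a 1.3-fold difference, the limits given in the series' design text. Of the 10 members 3 were called higher, LCE1B, LCE1C and LCE1E, and 0 lower, where 4.36% of all genes were called higher and 2.14% lower. By probe set 5 of 15 were called higher, and 0 lower, beside 3.65% and 2.62% of all probe sets. Counting a gene when at least 1 of its sets was called gave 4 members, LCE1F being the fourth, beside 5.53% of all genes. LCE1A moved across the limit with a single array: leaving out control replicate 1, control replicate 2 or epirubicin replicate 2 gave 0.42, 0.40 and 0.39, all called. As the members were chosen on this comparison, nothing is read from these counts.

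**Figure D2:**
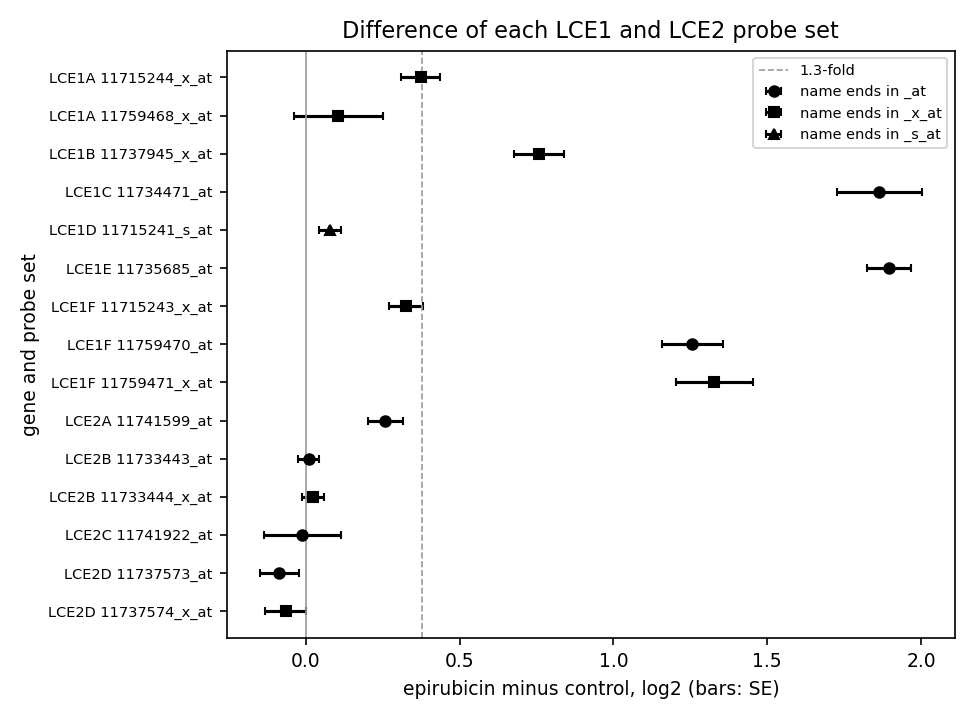
Difference between group means for each of the 15 probe sets, epirubicin minus control on the log2 scale (horizontal axis), with limma's standard error as bars and the marker shape giving the ending of the probe set's name. The differences of LCE1C and LCE1E lie near 1.9, those of LCE1F split between 0.33 and about 1.3, and all LCE2 sets lie left of the 1.3-fold line.

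The sequence just upstream of these genes was set beside the values, since probe sets of neighbouring paralogs with like upstream sequence gave unlike differences. RefSeq windows (GRCh38.p14) of 250 bases before the gene start were used for 9 of the 10 members, all but LCE1B. The last 100 bases before the start are shown for the 4 LCE1 genes whose windows align well, and for 2 LCE2 genes as a contrast. Capitals mark runs of 9 or more bases that are identical in LCE1C, LCE1D, LCE1E and LCE1F, or, in the last 2 lines, in all 4 LCE2 genes; in LCE2D the first run begins 1 base before the stretch shown.
LCE1C (chr1:152806652-152806751, minus strand): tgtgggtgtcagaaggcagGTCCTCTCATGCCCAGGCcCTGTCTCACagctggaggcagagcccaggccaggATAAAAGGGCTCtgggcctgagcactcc
LCE1D (chr1:152796621-152796720, plus strand): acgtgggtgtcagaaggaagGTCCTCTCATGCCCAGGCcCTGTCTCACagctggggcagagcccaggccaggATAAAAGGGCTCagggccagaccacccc
LCE1E (chr1:152786157-152786256, plus strand): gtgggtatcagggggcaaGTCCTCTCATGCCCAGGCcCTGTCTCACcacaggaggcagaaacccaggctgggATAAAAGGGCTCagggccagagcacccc
LCE1F (chr1:152775040-152775139, plus strand): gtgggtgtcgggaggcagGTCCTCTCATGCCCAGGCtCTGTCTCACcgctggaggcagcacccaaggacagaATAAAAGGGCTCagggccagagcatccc
LCE2A (chr1:152698245-152698344, plus strand): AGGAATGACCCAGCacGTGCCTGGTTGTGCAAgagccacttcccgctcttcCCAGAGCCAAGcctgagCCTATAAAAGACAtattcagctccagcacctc
LCE2D (chr1:152663280-152663379, plus strand): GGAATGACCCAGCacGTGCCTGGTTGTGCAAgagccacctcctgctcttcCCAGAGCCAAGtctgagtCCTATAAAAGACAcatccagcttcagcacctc

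Over the whole windows LCE1C, LCE1D, LCE1E and LCE1F were 67.4% to 74.4% identical to each other in global alignments, and the 4 LCE2 genes 70.1% to 92.0%. Between these 4 LCE1 genes and the LCE2 genes identity was 46.1% to 52.3%. The window of LCE1A was 40.0% to 48.1% identical to any other. LCE1D was identical to LCE1C in 73.7% of aligned columns and to LCE1E in 74.4%, yet its probe set differed by 0.08 where theirs differed by 1.86 and 1.90.

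The longest LCE1 run, GTCCTCTCATGCCCAGGC (18 bases), was found in 4 of 35116 human windows of the same length, on either strand, and these were the 4 LCE1 genes. It begins between positions -82 and -80, counted back from the base before the gene start as -1. ATAAAAGGGCTC begins at position -28 in all 4 and stands in 6 windows, which include LCE3C. The LCE2 run GTGCCTGGTTGTGCAA was found in the 4 LCE2 windows alone.

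Windows were searched for the p53 decamer consensus, since LCE1 genes are described as p53-responsive. It was present in 1 of the 9 member windows, that of LCE1E, as GGGCAAGTCC at position -88, and in 5.57% of all windows. A pair of adjacent decamers with at most 2 mismatches in 20 bases was found in 0 of the 9 windows and in 0.561% of all. The best pair in LCE1E, GGGCAAGTCCTCTCATGCCC, had 3 mismatches, and 4.36% of all windows held a pair at least as close. At the same place the pair in LCE1C and LCE1F, AGGCAGGTCCTCTCATGCCC in both, had 4 mismatches (22.1% of all windows at 4 or fewer) and that in LCE1D 5. Elsewhere in their windows LCE1A held a pair with 3 mismatches and LCE2B 1 with 4. The limits of 3 and 4 were chosen after the sequences were seen.

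The letters CATG, searched on both strands, were found in 4 of 5 LCE1 and 0 of 4 LCE2 windows, and in 47.6% of all. The longest LCE1 run holds CATG, so the match in those 4 LCE1 windows follows from that run. TATAAA was found in all 4 LCE2 windows and in 2 of 5 LCE1 windows, those of LCE1A and LCE1E, where it lay farther upstream, at positions -205 and -220, and in 10.7% of all windows. ATAAAA, which TATAAA followed by A contains and which was added after the sequences were seen, was found in all 9 (14.8% of all windows). These matches describe the letters in the windows and say nothing of which factors bind there.

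Along chromosome 1 the LCE1 genes are neighbours, in the order LCE1F, LCE1E, LCE1D, LCE1C, LCE1B and LCE1A, between KPRP and LCE6A. LCE1D, with 0.08 on its only set, lies between LCE1E and LCE1C. That set ends in s_at and, like the bright LCE1F set that read 0.33 where the other LCE1F sets read 1.26 and 1.33, carries no accession; whether it reads LCE1D alone was not tested. On the outer sides KPRP, named for its place, differed by 0.20 and LCE6A by 0.04, and neither was called. The LCE2 genes lie in a row of their own, in the order LCE2D to LCE2A, between LCE3A and LCE4A.

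**Figure D3:**
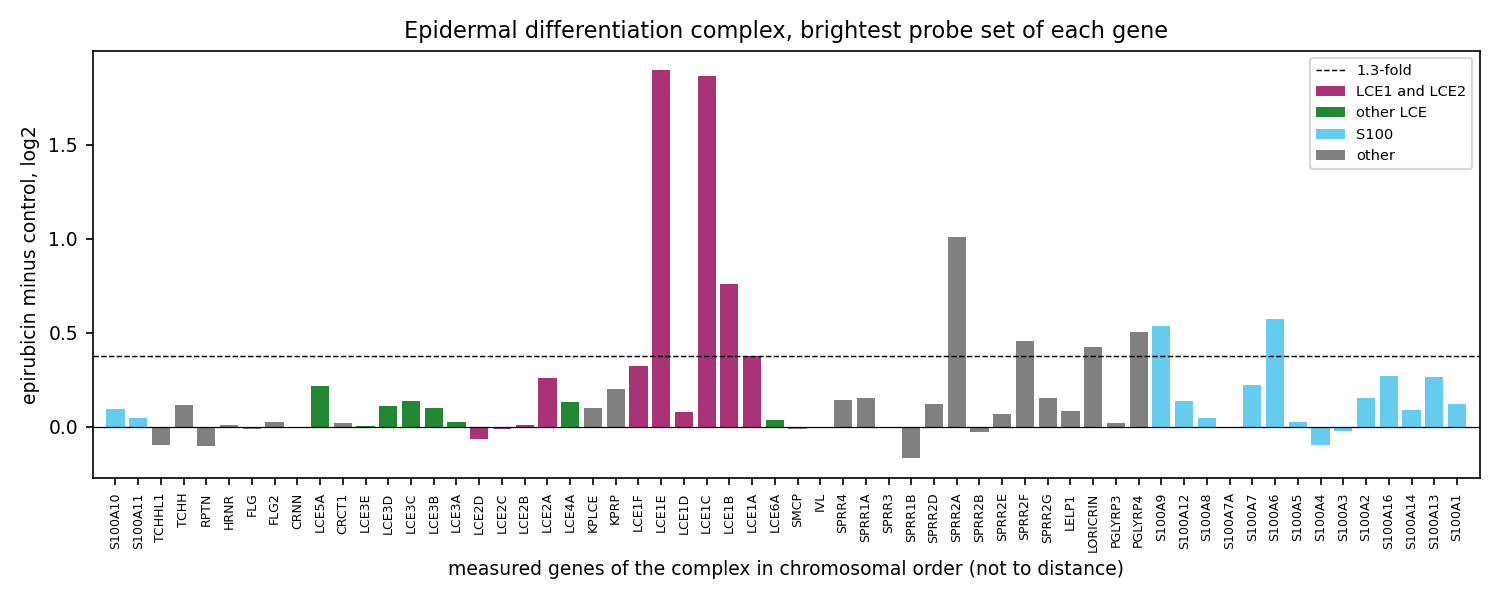
Difference between group means (vertical axis, epirubicin minus control, log2) of 60 measured genes of the epidermal differentiation complex, in their order on the chromosome from S100A10 to S100A1, 1 probe set per gene. S100A7L2, counted among the S100 genes in the text, is not shown. LCE1E and LCE1C are the tallest bars, SPRR2A follows with 1.01, and the LCE2 genes lie between -0.07 and 0.26.

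The other LCE genes encode envelope proteins of the same family. Of 8 (LCE3A to LCE3E, LCE4A, LCE5A and LCE6A) 0 were called in either direction in limma. Of all genes 4.36% were called higher and 2.14% lower. At an unadjusted p under 0.05, passed upward by 21.5% of all genes and downward by 17.8%, 3 of 8 were higher and 0 lower. Their median difference was 0.11 and the range 0.003 to 0.22. The largest was that of LCE5A, from 4.85 ± 0.10 to 5.07 ± 0.10 (SD, n = 3; limma, adjusted p = 0.0577). LCE3B, the brightest, went from 8.07 ± 0.02 to 8.17 ± 0.02 (adjusted p = 0.0566), a difference of 0.10. LCE3D, LCE3C, LCE3A and LCE3E differed by 0.11, 0.14, 0.03 and 0.003, and LCE4A and LCE6A by 0.13 and 0.04.

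Of 26 other structural genes of the complex that were measured, 4 were higher with epirubicin and 0 lower, beside 4.36% and 2.14% of all genes. The median over the 26 was 0.05. At an unadjusted p under 0.05 in limma 6 were higher and 0 lower, beside the 21.5% and 17.8% of all genes. SPRR2A, which encodes a small proline-rich envelope precursor, rose from 5.00, 4.99 and 5.07 to 6.04, 6.12 and 5.94 on the 3 arrays of each group. No array of 1 group came near the other, and the rise was 2.01-fold (log2 1.01, SE 0.05, limma adjusted p = 6.48e-05) and called on both of its probe sets. SPRR2F, a close paralog, rose by 0.46 (SE 0.05, adjusted p = 0.00103) on 1 of 2 sets, and its mean over the sets, 0.31, was not called. SPRR2 genes are so alike that signal may be shared among them.

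LORICRIN, the gene of the main cornified envelope protein, rose by 0.43 (SE 0.06, limma adjusted p = 0.00213) from a control level of 2.87, below the lower quartile of every array. PGLYRP4, which encodes a peptidoglycan recognition protein, rose by 0.51 (SE 0.15, adjusted p = 0.0449) on the set used, and its other set, at 0.41, was called as well. That call ended without control replicate 2 (adjusted p = 0.131), control replicate 3 (0.119), epirubicin replicate 2 (0.0842) or epirubicin replicate 3 (0.0668), and with each array centred on its median (0.0552). Filaggrin (FLG) differed by -0.01 and involucrin (IVL) by -0.003, neither called and both named after their values were seen.

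Of the 17 S100 genes of the complex, a family of small calcium-binding proteins, 2 were higher and 0 lower, beside 4.36% and 2.14% of all genes. The median over the 17 was 0.09. At an unadjusted p under 0.05 in limma 6 were higher and 0 lower, beside the 21.5% and 17.8% of all genes. S100A6 rose from 5.44 ± 0.06 to 6.01 ± 0.18 (SD, n = 3; log2 0.57, SE 0.09, adjusted p = 0.00396). S100A9, a subunit of the neutrophil and keratinocyte protein calprotectin, rose by 0.53 (SE 0.10, adjusted p = 0.00984). Its partner S100A8, named after its value was seen, differed by 0.05 and was not called.

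Outside the complex no gene of the cornification list was called, where 4.36% of all genes were called higher and 2.14% lower. Of 28 measured genes of transglutaminases, desmosomes, corneodesmosomes, lipid processing and suprabasal keratins, 0 were called in either direction in limma, with a median of 0.03 and a range from -0.16 to 0.25. At an unadjusted p under 0.05 in limma 5 were higher and 1 lower, beside the 21.5% and 17.8% of all genes. The envelope protein gene PPL (periplakin), named after its values were seen, had at least 1 probe set called higher, though not the one used.

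Of 21 measured regulators of epidermal differentiation 4 were higher and 0 lower, beside 4.36% and 2.14% of all genes, the median being 0.05. At an unadjusted p under 0.05 in limma 7 were higher and 2 lower, beside the 21.5% and 17.8% of all genes. GRHL3, a grainyhead transcription factor needed for the skin barrier, rose from 6.71, 6.71 and 6.72 to 7.56, 7.67 and 7.54. The groups lay far apart, and the rise was 1.84-fold (log2 0.88, SE 0.04, limma adjusted p = 5.36e-05). Its relative GRHL1, named after its value was seen, differed by -0.22 and was not called. KLF4 and ELF3, named after their values were seen, had at least 1 probe set called higher, though not the one used. Counting any called probe set gave 6 regulators higher, beside 5.53% of all genes.

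SATB1, a chromatin organizer, rose by 0.95 (SE 0.08, limma adjusted p = 0.000320) on the set used and by 1.06 on another. Both end in s_at or x_at, and the remaining set, at 1.96 in control, differed by 0.04. The receptor gene NOTCH1 rose by 0.55 (SE 0.03, adjusted p = 9.52e-05) on 1 of 3 sets, and its mean over the sets, 0.24, was not called. CEBPB, a basic leucine zipper factor, rose by 0.50 (SE 0.04, adjusted p = 0.000312). The 4 regulators called on the set used are also expressed outside skin.

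Among the 15 markers of basal keratinocytes and other epithelia, 1 was higher and 1 lower, beside 4.36% and 2.14% of all genes. The median over the 15 was 0.12. LAMB3, the laminin beta 3 chain, rose by 0.55 (SE 0.03, limma adjusted p = 0.000114) on 1 of 2 sets; its mean over the sets, 0.38, fell just short of the limit and was not called, while that of CLDN1, a claudin named after its value was seen, was called at 0.42. ITGA6, the integrin alpha 6 chain, fell by 0.40 on the log2 scale (SE 0.04, adjusted p = 0.000953); without control replicate 3 or epirubicin replicate 2 it changed by -0.37 and fell short of the fold limit. Among 14 plasma cell markers 2 were lower in limma, CD38 (-1.18, SE 0.05, adjusted p = 2.57e-05) and IRF4 (-0.49, SE 0.03, adjusted p = 0.000114), and 0 higher. Of all genes 2.14% were called lower and 4.36% higher.

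**Figure D4:**
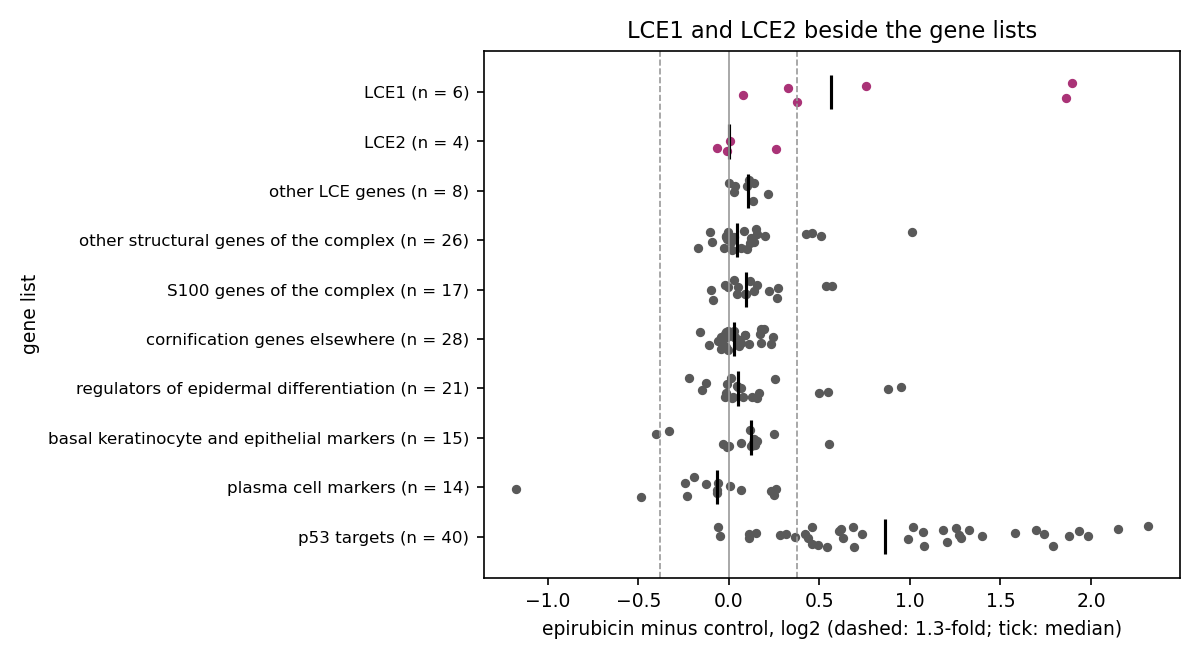
Differences of single genes (points, epirubicin minus control, log2) for LCE1, LCE2 and the 8 gene lists, with the median as a tick and dashed lines at 1.3-fold. LCE1 spreads from 0.08 to 1.90 around 0.57, LCE2 and most skin lists lie around 0, and the 40 p53 targets spread around 0.86.

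Genes regulated by p53 were listed beside the family because LCE1 genes are described as p53-responsive. In limma 32 of 40 measured targets were called higher and 0 lower, beside 4.36% and 2.14% of all genes. The median difference was 0.86, and the list was chosen with earlier results of these data known. The largest were DRAM1 of autophagy (2.32), the AKT repressor PHLDA3 (2.15), the BH3-only gene PMAIP1, also called NOXA (1.98), and the kinase gene PLK2 (1.93), with adjusted p of at most 1.30e-05. LCE1E at 1.90 and LCE1C at 1.86 lay just under these largest values of the list. On the probe sets used, the other LCE1 genes differed by 0.08 to 0.76, under the list's median of 0.86. Whether p53 had a part in the LCE1 values was not tested.

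Genes outside the family were ranked by how close their values lay to a member's. Closeness was the root mean square difference over the 6 arrays of log2 values centred on each gene's control mean. With 2 groups it mostly follows the size of the difference: the genes nearest to LCE1E differed by 1.88 to 1.98, and LCE1E by 1.90. The ranking uses the comparison on which the family was picked, and shared regulation was not tested. Nearest to LCE1E were CHRNA1, a muscle acetylcholine receptor subunit (0.07), PLK2 (0.08), PMAIP1 (0.09), CDKN1A, which encodes p21 (0.09), and the phospholipase gene PLA1A (0.11). Nearest to LCE1C were PLA1A (0.15), CDKN1A (0.17), PMAIP1 (0.18), the DNA damage recognition gene DDB2 (0.18) and CHRNA1 (0.19).

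Nearest to LCE1B were RAPH1, the gene of lamellipodin (0.07), the blood group gene KEL (0.07), the inositol phosphatase gene INPP1 (0.07), the pseudogene HSD17B7P2 (0.08) and CTSV, which encodes cathepsin V (0.08). LCE1A and LCE1F on their brightest sets were under the 1.3-fold limit and were not ranked.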

How the data were processed

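The authors' deposited table holds log2 expression of 47481 probe sets on each array. That the scale is log2 follows from the range of values (1.41 to 13.73). The affy package is named in the submitters' processing notes; how background, normalization and probe summary were handled is not given there, and no detection calls were used, so dim values may be background. Precision is limited by the number of arrays.

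Gene names came from the platform annotation (1 symbol for 43976 sets), with symbols updated through Entrez numbers to RefSeq GRCh38.p14. Each of 17534 genes was represented by its brightest probe set on average. The test was limma 3.58.1 under R 4.3.3 (lmFit, eBayes, Benjamini-Hochberg over all genes); a gene was called at an adjusted p under 0.05 and at least 1.3-fold. All probe sets were also fitted. On simulated data, with 200 of 17534 genes changed, 97.7% of 1.5-fold and 99.9% of 2-fold changes were recovered. The simulated noise was independent and normal, with the spread of these arrays, which may be technical. The recovery therefore says nothing of power between separate cultures.

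Members and lists were chosen with earlier results of these data known. Genes are named by rule: every member, every other LCE gene, from each list up to 4 called genes per direction whose groups do not overlap, and the 5 nearest genes to each member past 1.3-fold; others are marked. Windows were aligned with Biopython 1.88. Replicate numbers did not pair the arrays (correlations of same-numbered deviations from -0.06 to -0.0004). Alternatives were the mean over probe sets, median centring, quantile normalization, a filter on dim genes, other fold limits, a variance trend, the replicate block, leaving out each array, and, chosen after seeing the data, 2 other ways of choosing probe sets; for the members' counts the dim filter, the fold limits and the variance trend were also added after seeing the data.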

Additional observations from a re-analysis of the deposited data

How the results depend on the processing

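The limits are the absence of detection calls, the 3 arrays per group, and probe sets of close paralogs that may share signal: 8 of the 15 member sets end in s_at or x_at. LCE1B, LCE1C and LCE1E kept their direction under every alternative run that gave them a value, and leaving out 1 array in turn gave 0.71 to 0.85, 1.76 to 2.02 and 1.81 to 1.94. Without a fold limit 6 of the 10 members were higher, as were 3 cornification genes outside the complex (1 lower), 2 epithelial markers, 3 plasma cell markers (6 lower) and 2744 of all genes (2362 lower), and 2 regulators were lower. With a 2-fold limit 85 of all genes were higher and 19 lower, 19 p53 targets, 1 structural gene and 0 S100 genes, regulators and epithelial markers were higher, and 1 plasma cell marker and 0 epithelial markers were lower. The filter on dim genes kept only 3 structural and 3 S100 genes, of which 2 and 1 were higher, beside 634 of all 10087 genes kept. Counting any called probe set gave 1 cornification gene and 2 epithelial markers higher, beside 969 of all 17534 genes, and 694 of all genes lower. Leaving out s_at and x_at sets gave 2 regulators of 16 measured as higher, beside 647 of all 16208 genes. Quantile normalization left 0 epithelial markers lower, and leaving out 1 array in turn 0 to 1; ITGA6 fell under the fold limit in quantile normalization and without control replicate 3 or epirubicin replicate 2, and in the last EPCAM was lower instead (-0.42, limma adjusted p = 0.0279). With the replicate number as a block, 3 members were again higher, 755 of all genes were higher and 372 lower, and PGLYRP4 lost its call (limma adjusted p = 0.0773).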
